A study of Homo sapiens with 21 samples.

Results

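Interferon-stimulated genes are the genes a cell switches on when interferon reaches its surface, and 53 of them, chosen by symbol, were followed among 58174 gene identifiers. Interferons bind surface receptors whose JAK and TYK kinases phosphorylate STAT proteins, and a complex that contains STAT2 and IRF9 then binds the interferon-stimulated response element in the promoters of target genes. The products block viral entry, cut or sequester foreign RNA, tag proteins with the ubiquitin-like modifier ISG15 and sense nucleic acids. In blood stem and progenitor cells the same genes are often expressed without infection, and long interferon exposure is known to affect stem cell function.

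RNA was sequenced from OCI-AML5, a human line derived from acute myeloid leukaemia, in 21 libraries that made 7 groups of 3. UM171, a pyrimidoindole that expands human blood stem cells in culture, was given for 6, 24, 48 or 72 h at a labelled 500 nM (the study's text gives a lower dose), and the vehicle group received DMSO (0 nM) and is labelled 72 h. A second set, named sgEPCR, received a guide against PROCR, the gene of the surface protein EPCR, and was treated with DMSO or with 500 nM UM171, both labelled 24 h; the study describes independent clones, and which clone or guide a library carried is not stated in the labels. No label gives the other 5 groups a guide, and they are called control cells here. Nothing says that the libraries of a control group came from separate cultures, so p-values measure the spread between libraries, which may be technical.

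Libraries held 24286668 to 51540166 expected counts (median 33888914). PROCR, the targeted gene, stood at 2.3, 4.53 and 3.93 TPM in sgEPCR DMSO libraries and 3.37, 4.3 and 3.38 TPM in DMSO control libraries. After 24 h of UM171 it reached 8.94, 4.23 and 8.41 TPM in sgEPCR cells and 48.5, 48.5 and 48.5 TPM in control cells, a difference of -2.63 ± 0.12 (SE) on the log2 scale. At baseline the fitted difference was 0.42 ± 0.12 (SE), and a guide need not lower the RNA of its target. Mitochondrial transcripts took 35.9% of sgEPCR DMSO replicate 1 and 32.2% of sgEPCR UM171 replicate 2, against 7.7 to 13.5% elsewhere. In those libraries 43 and 45 of the 50 members tested had a lower TPM than both other libraries of their group. The same count was not made over all genes, so it is not read as particular to the members. The counts of calls in the sgEPCR comparisons, and the changes of the genes called, are therefore given with and without those libraries. Without them the PROCR differences were -2.59 ± 0.07 under UM171 and 0.33 ± 0.11 at baseline (SE). Summed TPM of 9 myeloid markers was 1534 to 1626 in DMSO and 2269 to 2468 at 72 h, and 763 to 1318 in sgEPCR DMSO against 1290 to 1836 in sgEPCR UM171. Of these markers LYZ had the largest rise, from a mean of 717 TPM in DMSO to 1693 TPM at 72 h. SPI1 (417 and 216 TPM), CEBPA (88.9 and 47.6), CD33 (178 and 156) and MPO (2.69 and 1.5) had lower means at 72 h. PTPRC, ANPEP, CSF2RA and CSF2RB had higher ones. For 5 markers of plasmacytoid dendritic cells, which make much interferon, the sums were 31.6 to 34.4 TPM in DMSO, 72.2 to 80.0 TPM at 72 h, 9.23 to 21.3 TPM in sgEPCR DMSO and 33.6 to 70.2 TPM in sgEPCR UM171. Nearly all of these sums was IL3RA (mean 27.8 TPM in DMSO, 60.9 TPM at 72 h) and TCF4 (4.62 and 15.4 TPM). CLEC4C and LILRA4 had at most 1 count in any library, and SPIB had no group mean over 0.747 TPM. The T-cell pair CD3D and CD3E summed to 0.11 to 0.8 TPM in DMSO and 14.6 to 18.4 TPM at 72 h, nearly all of it CD3D, while pairs for B, erythroid, fibroblast and epithelial cells summed to at most 1.76 TPM. The part of these shifts in the results was not tested.

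Levels are in TPM, the share of all transcripts that RSEM assigned to a gene after correcting for transcript length. Differences are log2 fold changes fitted to expected counts with edgeR's quasi-likelihood test, and a gene is said to have risen or fallen where the p adjusted over all genes by Benjamini-Hochberg fell below 0.0001 and the difference exceeded 2-fold. Of the members, 50 passed the low-count filter. IFITM1, IFITM3 and GBP1 did not, with at most 18, 4 and 4 counts in any library. In RNA from whole cultures, fewer cells expressing a gene and less RNA per cell cannot be told apart.

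Promoter sequences are shown first because the response element in its promoter is how interferon is known to reach such a gene. Windows of 250 bases before to 50 after a RefSeq start site (GRCh38.p14) were found for 43 of the 53 members. The core, GAAA and GAAA with any 2 bases between, searched on both strands, occurred in 29 of the 43 (67.4%) and in 1195 of 27305 genes with a window (4.38%). A narrower form with C as the first of the 2 bases, a subset of that core, was in 21 members (48.8%) and 0.941% of genes, and TTCNNNGAA, the gamma-activated sequence, in 13 members (30.2%) and 9.38% of genes. A match is a run of letters and not a measured binding site. IRF7, OASL, USP18, GBP2, IFITM2, MX2, IFIT2, OAS2, GBP5 and TRIM22 were not searched.

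The following stretches were picked to span the ways the members behaved, and none overlaps an annotated GENCODE v44 exon. Capitals mark the core, which reads TTTC first where it lies on the opposite strand, and each stretch runs 5′ to 3′ on the gene's strand. ISG15, IFI6, HERC5, IFIT1 and IFITM3 show more than 1 core, and in ISG15 and HERC5 cores overlap. IFIH1, PARP14 and SAMD9 had their highest control-cell mean at 6 h, IFIT1, IFI44 and HERC5 at 24 h, and IFI6 at 72 h. IFITM3 carries the same core and was nearly silent in every group.
ISG15 (chr1:1013369-1013414): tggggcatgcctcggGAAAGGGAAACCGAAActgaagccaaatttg
IFI6 (chr1:27672261-27672363): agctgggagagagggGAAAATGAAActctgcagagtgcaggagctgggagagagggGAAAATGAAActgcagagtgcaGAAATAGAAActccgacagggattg
HERC5 (chr4:88456979-88457069): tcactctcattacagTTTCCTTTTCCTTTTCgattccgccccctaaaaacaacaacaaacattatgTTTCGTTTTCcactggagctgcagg
IFIH1 (chr2:162318685-162318720): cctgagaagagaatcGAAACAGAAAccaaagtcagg
PARP14 (chr3:122680795-122680834): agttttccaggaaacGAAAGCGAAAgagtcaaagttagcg
SAMD9 (chr7:93118091-93118130): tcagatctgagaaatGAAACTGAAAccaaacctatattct
IFIT1 (chr10:89392492-89392544): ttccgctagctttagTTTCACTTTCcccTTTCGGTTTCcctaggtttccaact
IFI44 (chr1:78649756-78649788): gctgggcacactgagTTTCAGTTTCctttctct
IFITM3 (chr11:320871-320927): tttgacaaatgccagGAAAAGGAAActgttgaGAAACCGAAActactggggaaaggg

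Among tested members with the core (26), the median log2 change at 6 h was 0.93 and 9 rose. Among those whose window lacks it (14), the median was 0.55 and 2 rose. The corresponding medians were 0.86 and 0.00 at 24 h, 0.82 and 0.02 at 48 h and 0.52 and 0.15 at 72 h. The 10 tested members with no window had medians of 0.17, 0.54, 0.60 and 0.38 at the 4 times. Over all genes tested the medians were 0.02, -0.01, 0.00 and 0.02, and 6.78% rose at 6 h. In sgEPCR cells the medians after UM171 were 0.56 with the core, 0.44 without it and 0.48 with no window, and 1, 3 and 2 members rose. There the median over all genes was -0.01 and 6.99% rose. No test of this split was made.

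The first comparisons asked how the genes moved as UM171 exposure lengthened, and all 4 share the same DMSO libraries. Those are labelled 72 h, so at 6, 24 and 48 h the treatment and the labelled time cannot be told apart. At 6 h, 13 of the 50 members rose and 0 fell by edgeR (35 were higher and 6 lower at an unadjusted p under 0.05), against 6.78% of all 16575 genes tested that rose and 0.247% that fell. At 24 h, 18 rose and 2 fell (background 9.03% and 4.70%). At 48 h the counts were 14 and 4 (11.7% and 4.67%), and at 72 h 13 and 2 (15% and 5.80%). At an adjusted p under 0.05 with no fold limit, 33 were higher and 6 lower at 6 h (31.8% and 30.3% of all genes), 30 and 13 at 24 h (34.9% and 34.8%), 28 and 12 at 48 h (37.1% and 35.0%) and 28 and 10 at 72 h (38.8% and 36.8%). The member share of calls higher was furthest above the background at 6 and 24 h, and the background itself grew with time. Median log2 changes of the members were 0.70, 0.49, 0.50 and 0.43, beside 0.02, -0.01, 0.00 and 0.02 over all genes. With total-count scaling the 6 h median of all genes shifts to 0.20 and that of the members to 0.88.

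**Figure D1:**
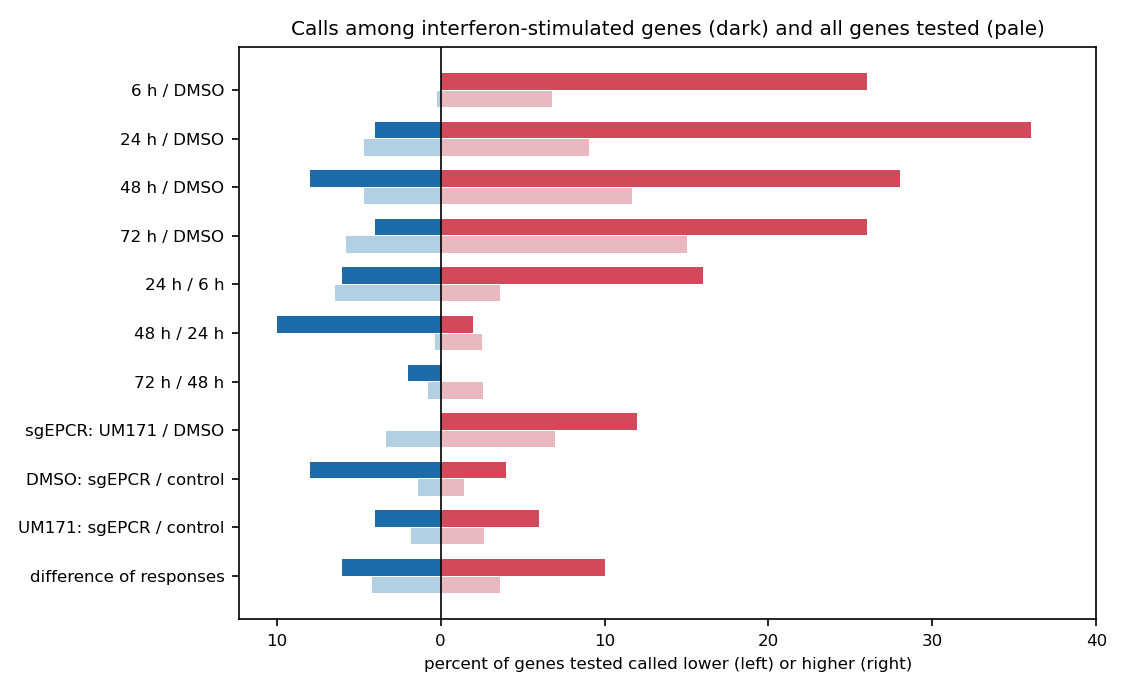
Percent of genes called lower (left of 0) or higher (right of 0) in each of the 11 comparisons, for the 50 interferon-stimulated genes tested (dark bars) and all genes tested (pale bars). At 24 h of UM171 36.0% of the members rose, beside 9.03% of all genes; from 24 to 48 h 10.0% fell, beside 0.338%.

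In all, 24 members rose at 1 or more times and 5 rose at all 4 times, namely OAS3, HERC5, USP18, EPSTI1 and PARP9, beside 19.1% and 3.60% of all genes tested. IRF7, CMPK2, TRIM22 and TRIM21 fell at 1 or more times (9.80% of all genes), and 22 members moved in neither direction (71.4%). Sorted by the group with the highest mean TPM in control cells, 24 members were highest at 6 h, 11 at 24 h, 13 at 72 h, 2 in DMSO and 0 at 48 h. Across all 7 groups the lowest mean was in sgEPCR DMSO for 34 of the 53, in DMSO for 10 and in sgEPCR UM171 for 5, and without the 2 libraries of high mitochondrial share these were 30, 12 and 6. TPM and counts can part here: of the 33 tested members lowest in sgEPCR DMSO, 7 had a fitted change above 0 against DMSO. At an adjusted p under 0.05, 18 were lower, but these members were picked by that low mean, so the 18 are no test of it. Over all 50 members tested 21 were lower and 7 higher at that limit, beside 16.3% and 17.4% of all genes. Where an sgEPCR group is named below as lowest, its mean includes the library of high mitochondrial share. Without both such libraries the lowest group was DMSO for GBP5. Fitted changes of sgEPCR DMSO against DMSO were then -0.11 ± 0.04 for PLSCR1 and -0.06 ± 0.09 for PARP9 (SE). The sorting uses the same values it describes and carries no test. Counts of highest and lowest groups were not made over all genes, so they are not read as particular to the members. Medians of sgEPCR DMSO against DMSO in log2(TPM + 1) were -0.32 over all genes and -0.44 over the members. Over the 24 members highest at 6 h the median log2 change against DMSO went from 0.85 at 6 h to 0.40, 0.01 and 0.06 at the later times. For the 11 highest at 24 h it was 1.05, 2.00, 1.03 and 0.67. For the 13 highest at 72 h it climbed from 0.18 and 0.21 to 0.94 and 1.07.

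**Figure D2:**
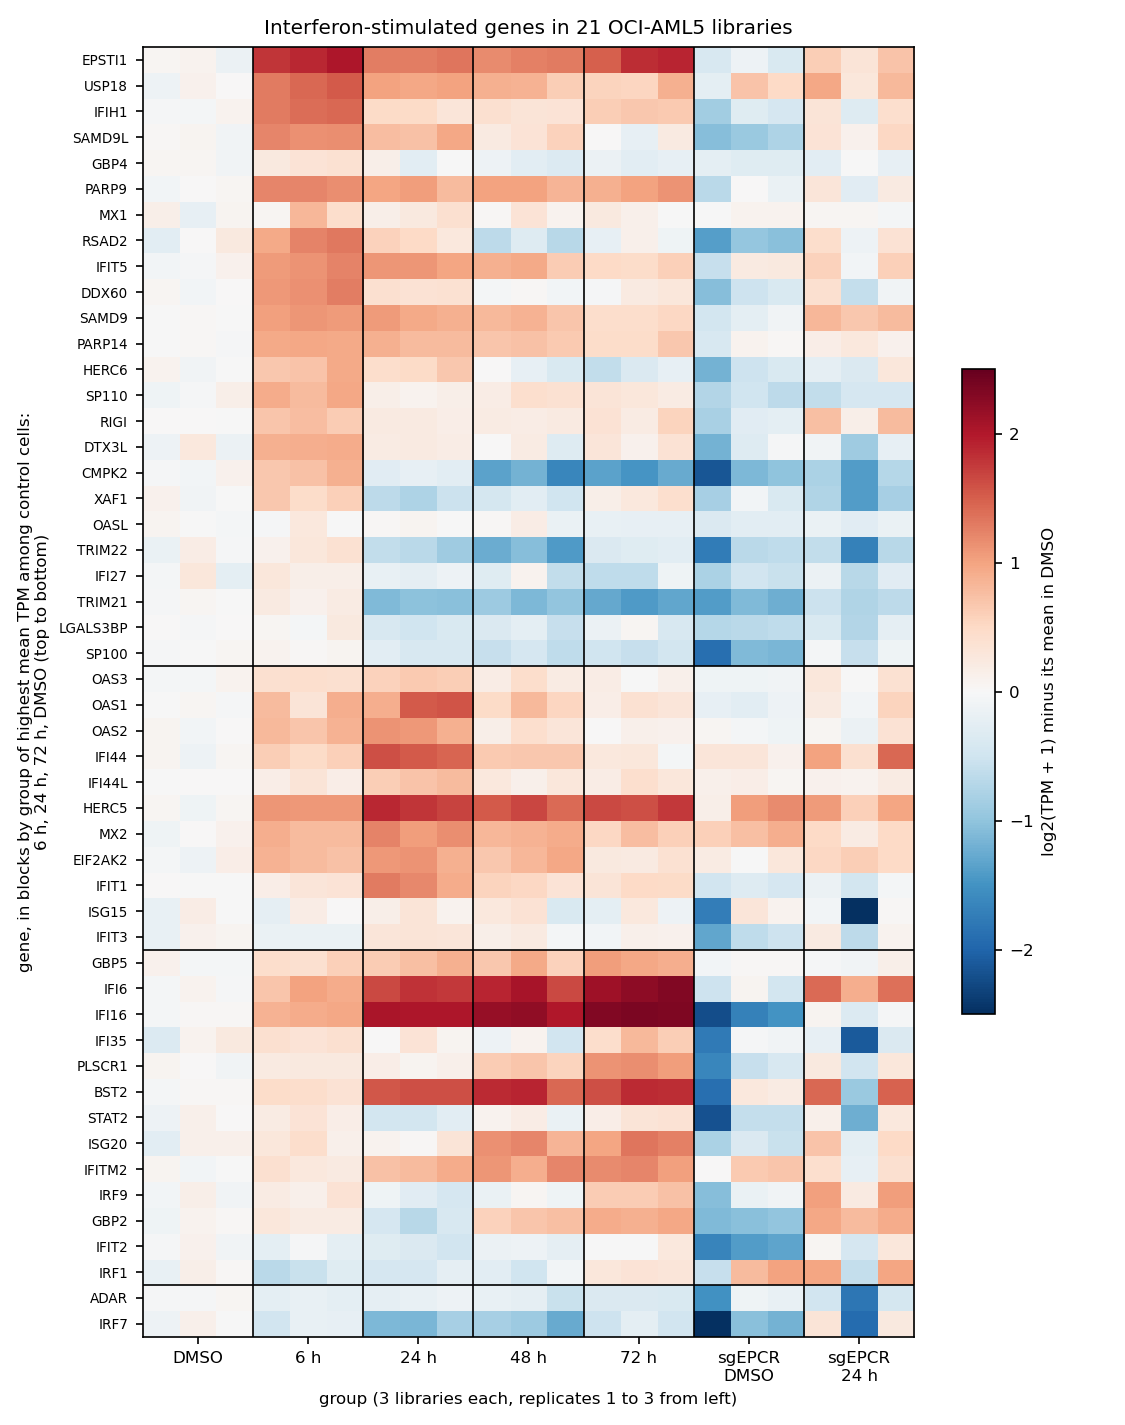
Log2(TPM + 1) of the 50 tested interferon-stimulated genes in each of the 21 libraries, minus the gene's mean in DMSO, in blocks by the control-cell group with the highest mean (24 genes at 6 h, 11 at 24 h, 13 at 72 h, 2 in DMSO). Red is above and blue below the DMSO mean; colours saturate at 2.5. The first sgEPCR DMSO library and the second sgEPCR UM171 library are bluer than their neighbours.

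Interferon ligands were at or near 0 throughout. IFNA1, IFNA2, IFNG, IFNL1 and IFNK had 0 counts in every library, where a count of 0 allows up to 3 counts, or 5.82e-06% to 1.24e-05% of a library (counting error only). IFNB1 and IFNE reached 2 counts at most. The receptor chain IFNAR1, by contrast, stood at 31.1 ± 2.06 TPM in DMSO and 38.7 ± 3.29 TPM at 6 h (SD, n = 3).

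Of 43 further genes of interferon sensing and signalling, listed beside the members, 34 were tested in control cells. At 6 h 2 rose and 0 fell by edgeR (8 higher and 16 lower at an adjusted p under 0.05), beside the backgrounds of 6.78% and 0.247% (31.8% and 30.3% at 0.05). Later, 2 rose and 1 fell at 24 h (9.03% and 4.70% of all genes) and at 48 h (11.7% and 4.67%), and 3 rose and 1 fell at 72 h (15% and 5.80%). JAK2, a kinase of the JAK family, was the gene that fell each time. It went from 19.3 ± 1.12 TPM in DMSO to 8.06 ± 0.135 at 24 h (log2 change -1.29 ± 0.05, SE). TLR3, an endosomal sensor of double-stranded RNA, rose from 0.1 ± 0.0265 TPM to 1.65 ± 0.492 TPM at 6 h (4.0 ± 0.24) on a base of 5 or 6 counts per DMSO library. TRIM5, a restriction factor, rose from 13.6 ± 0.777 TPM to 40 ± 2.2 TPM at 48 h (1.68 ± 0.07).

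Transcription factors moved little or downward. STAT2, which recruits the transcriptional activation machinery, was at 19.3, 23.2 and 21.2 TPM in DMSO, 24.6, 27.1 and 23.9 TPM at 6 h, 15.1, 15.2 and 17.5 TPM at 24 h, 22.6, 24.3 and 18.9 TPM at 48 h and 23.9, 26.6 and 27.3 TPM at 72 h. The 24 h libraries lay below every DMSO library and the 72 h libraries above, with log2 changes of -0.35 ± 0.05 (SE, adjusted p = 1.9e-05) and 0.39 ± 0.05 (SE, adjusted p = 3.4e-06), both under 2-fold. IRF9, the DNA-binding partner, was at 14.5, 16.9 and 14.1 TPM in DMSO and 17.6, 16.7 and 19.7 TPM at 6 h. At 24, 48 and 72 h it was at 14, 12.2 and 11.1, then 13.4, 15.8 and 14, and then 23.9, 24 and 25.7 TPM. Only its 72 h libraries stood clear above DMSO, at 0.55 ± 0.07 (SE, adjusted p = 2.7e-06).

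IRF7, the factor that amplifies type I interferon production, had 8.97, 10.9 and 9.7 TPM in DMSO, 6.78, 8.53 and 8.42 TPM at 6 h, 3.94, 3.9 and 5.11 TPM at 24 h, 5.07, 4.78 and 3.51 TPM at 48 h and 6.59, 8.1 and 6.72 TPM at 72 h. Every 24 and 48 h library lay below every DMSO library, and IRF7 fell, with log2 changes of -1.18 ± 0.11 (SE, adjusted p = 5.9e-08) and -1.22 ± 0.11 (SE, adjusted p = 4.3e-08). IRF1, a target of interferon gamma that also activates many members, had 15.4, 19.8 and 18.2 TPM in DMSO and 10.7, 11.8 and 14.2 TPM at 6 h, a log2 change of -0.79 ± 0.08 (SE, adjusted p = 1.7e-07). It stood at 13, 13 and 15.1 TPM at 24 h, 14.7, 12.3 and 16.7 TPM at 48 h and 21.8, 22.6 and 21.9 TPM at 72 h, when the fitted change was 0.04 ± 0.07 (SE).

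Within the ISG15 system, the modifier and its enzymes parted. ISG15 was at 9.94, 13.2 and 11.4 TPM in DMSO, 9.7, 13.2 and 11.5 TPM at 6 h, 12.7, 14.5 and 12.2 TPM at 24 h, 13.9, 15 and 8.56 TPM at 48 h and 9.44, 14 and 10.4 TPM at 72 h. Its groups overlapped at each time and its log2 changes, -0.17, 0.17, 0.15 and -0.10, had standard errors of 0.15 or 0.16. USP18, which removes ISG15 from proteins and dampens receptor signalling, had 0.42, 0.68 and 0.57 TPM in DMSO and 2.82, 3.21 and 3.5 TPM at 6 h, then 2.11, 2.02 and 2.11 TPM at 24 h, 1.86, 1.85 and 1.39 TPM at 48 h and 1.29, 1.25 and 1.87 TPM at 72 h. All 12 treated libraries exceeded all DMSO libraries. USP18 rose by 2.34 ± 0.18 (SE, adjusted p = 8e-09) at 6 h and 1.34 ± 0.19 (SE, adjusted p = 4.8e-06) at 72 h, and reads shared with its near-identical copy USP41 could not be told apart with certainty.

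HERC5, the ligase that attaches ISG15, rose from 5.59, 4.91 and 5.52 TPM in DMSO to 12.7, 12.4 and 12.5 TPM at 6 h and 22.3, 20.8 and 19.4 TPM at 24 h. It remained at 17.3, 19.2 and 15.9 TPM at 48 h and 18.9, 18.4 and 20.4 TPM at 72 h, with log2 changes of 1.05 ± 0.06, 1.92 ± 0.06, 1.69 ± 0.06 and 1.75 ± 0.06 (SE). HERC6, its relative, was highest at 6 h (6.3 ± 0.756 TPM against 3.26 ± 0.241 in DMSO) and lowest of all groups in sgEPCR DMSO (1.71 ± 0.734). It stayed under 2-fold at every time, and its log2 change went from 0.84 at 6 h to -0.60 at 72 h.

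The OAS enzymes, which make the 2-5A messenger that activates RNase L, rose steeply from low levels. OAS1 had 0.19, 0.23 and 0.17 TPM in DMSO, 1.07, 0.5 and 1.25 TPM at 6 h, 1.26, 2.46 and 2.58 TPM at 24 h, 0.67, 1.09 and 0.74 TPM at 48 h and 0.35, 0.56 and 0.47 TPM at 72 h. No treated library overlapped DMSO, and the log2 changes were 2.28 ± 0.38 (SE, adjusted p = 5.5e-05), 4.03 ± 0.32 (SE, adjusted p = 5.2e-09), 2.93 ± 0.35 (SE, adjusted p = 9.2e-07) and 1.93 ± 0.39 (SE, adjusted p = 0.00024), the last short of the adjusted p limit. OAS3 ran from 0.09, 0.1 and 0.21 TPM in DMSO to 0.5, 0.51 and 0.49 TPM at 6 h and 0.68, 0.78 and 0.74 TPM at 24 h, back to 0.28, 0.53 and 0.31 TPM at 48 h and 0.28, 0.13 and 0.23 TPM at 72 h. It rose at all 4 times, by 4.07 ± 0.29 (SE) at 24 h. For OAS3 the 2 scales parted: counts at 24 h were 16.8-fold and TPM 5.5-fold above DMSO, and by 72 h the TPM values overlapped DMSO.

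OAS2 followed, from 0.29, 0.17 and 0.24 TPM in DMSO to 1.17, 0.98 and 1.25 TPM at 6 h, 1.7, 1.6 and 1.29 TPM at 24 h, 0.36, 0.64 and 0.51 TPM at 48 h and 0.24, 0.34 and 0.33 TPM at 72 h. It rose by 1.83 ± 0.21 and 2.42 ± 0.21 and then fell between 24 and 48 h, with a log2 change of -1.79 ± 0.19 (SE, adjusted p = 1.2e-06). OASL, a relative without the enzyme activity, had no group mean over 0.363 TPM (lowest in sgEPCR DMSO at 0.0467 TPM), and its 72 h change was -0.87 ± 0.37 (SE, adjusted p = 0.043). RNA counts for these low genes are few, and RSEM's intervals on a member's TPM spanned 6.08 to 165% of the value (median over libraries, lowest and highest member).

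IFIT proteins bind foreign RNA ends and stop its translation, and they divided. IFIT1 had 0.66, 0.63 and 0.63 TPM in DMSO, 0.83, 1.02 and 1.07 TPM at 6 h, 3.01, 2.76 and 2.13 TPM at 24 h, 1.4, 1.35 and 1.09 TPM at 48 h and 1.06, 1.31 and 1.28 TPM at 72 h. It rose at 24 h (2.00 ± 0.16, SE, adjusted p = 5.5e-09) and 48 h (1.03 ± 0.17, SE, adjusted p = 3.6e-05), and the 24 h libraries stood above all others. IFIT5 rose at 6 and 24 h (1.10 ± 0.06 and 1.15 ± 0.06, SE), from 5.74 ± 0.44 TPM in DMSO, its lowest mean, to 13.9 ± 0.896 TPM at 6 h. IFIT2 and IFIT3 stayed within 2-fold: IFIT3 ranged in control cells from 7.63 TPM at 6 h to 11.1 TPM at 24 h (lowest in sgEPCR DMSO at 4.68 TPM), and IFIT2 from 2.33 TPM at 24 h to 3.61 TPM at 72 h.

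RSAD2, or viperin, and CMPK2, its neighbour that makes nucleotides for the same pathway, both had their highest control-cell mean at 6 h. Both fell from 24 to 48 h, and they differed in their later levels against DMSO. RSAD2 had 1.37, 1.87 and 2.34 TPM in DMSO, 4.45, 5.69 and 6.08 TPM at 6 h, 3.2, 3.01 and 2.41 TPM at 24 h, 0.81, 1.26 and 0.76 TPM at 48 h and 1.46, 2.08 and 1.62 TPM at 72 h. It rose at 6 h (1.2 ± 0.12, SE, adjusted p = 1.7e-07) and fell from 24 to 48 h (-1.77 ± 0.13, SE, adjusted p = 1.7e-08), where its libraries sat below every DMSO library. CMPK2 had 13.6, 13.3 and 15.1 TPM in DMSO, 22.8, 23.9 and 26.6 TPM at 6 h, 11.3, 12 and 11.5 TPM at 24 h, 4.93, 5.6 and 3.85 TPM at 48 h and 4.89, 4.36 and 5.24 TPM at 72 h. It fell below DMSO at 48 h (-1.52 ± 0.07) and 72 h (-1.62 ± 0.07, SE), its 6 h excess of 0.65 ± 0.06 being under 2-fold. The genes overlap on opposite strands and the strand setting of the counting was not stated, so reads there cannot be assigned with certainty. ISG20, an exonuclease, rose late, from 1.18 ± 0.318 TPM in DMSO to 3.57 ± 0.604 TPM at 48 h and 3.98 ± 0.613 TPM at 72 h (1.30 ± 0.23 and 1.49 ± 0.23 on the log2 scale; lowest in sgEPCR DMSO at 0.467 TPM).

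**Figure D3:**
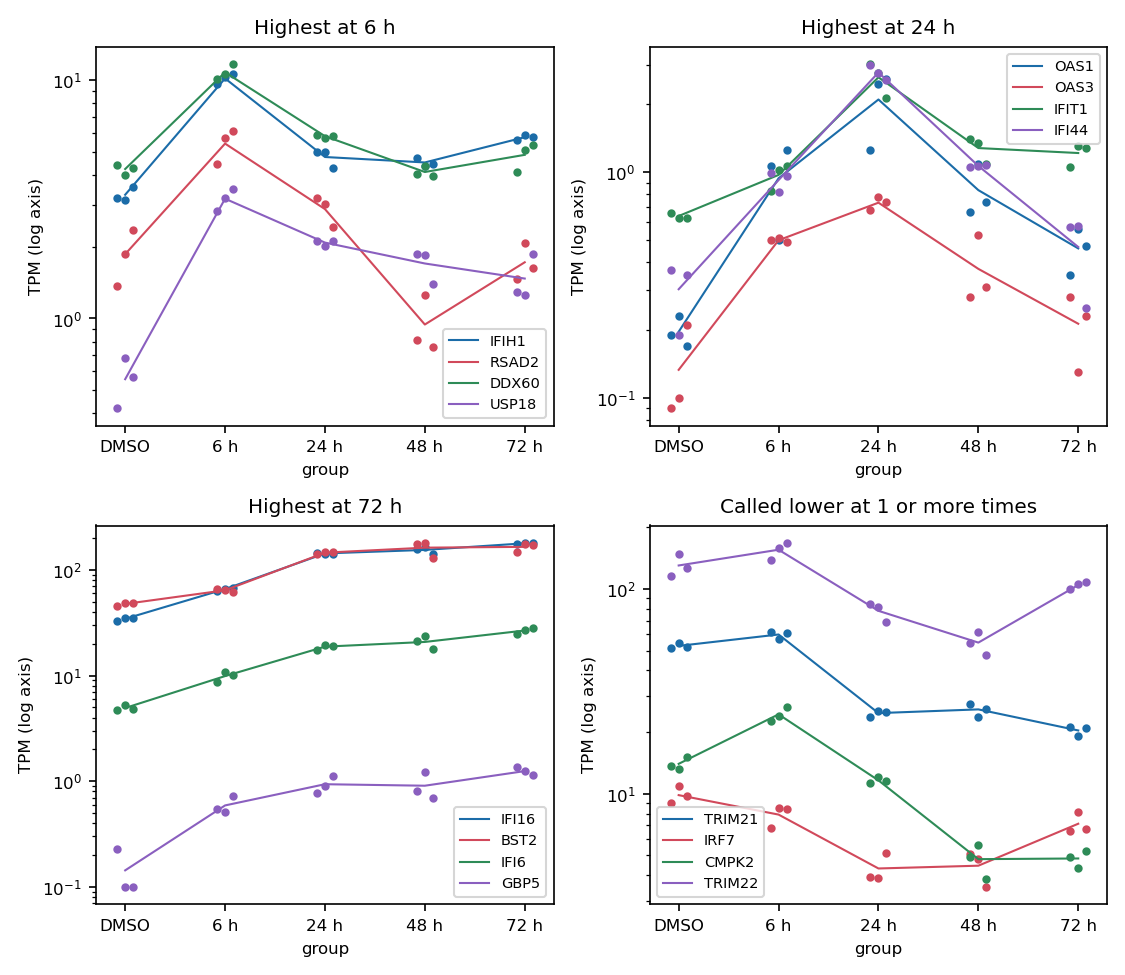
TPM (log axis) of 16 interferon-stimulated genes in control cells, by group; points are the 3 libraries and lines join the means. The panels show genes highest at 6 h, at 24 h and at 72 h and those called lower at 1 or more times, among them IFIH1 with 9.57 to 10.6 TPM at 6 h and TRIM21 with 19.1 to 21.2 TPM at 72 h.

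Sensors of nucleic acids included early and lasting members. IFIH1, which encodes MDA5, a sensor of long double-stranded RNA, had 3.2, 3.14 and 3.56 TPM in DMSO, 9.57, 10.3 and 10.6 TPM at 6 h, 4.99, 4.97 and 4.29 TPM at 24 h, 4.69, 4.37 and 4.46 TPM at 48 h and 5.62, 5.87 and 5.76 TPM at 72 h. All treated libraries exceeded DMSO, and it rose by 1.41 ± 0.07 (SE, adjusted p = 6.7e-11) at 6 h, with later changes under 2-fold. RIGI, which senses short RNA with a 5′ triphosphate, had 2.97, 2.97 and 2.96 TPM in DMSO, 5.44, 5.81 and 5.19 TPM at 6 h, 3.61, 3.64 and 3.43 TPM at 24 h, 3.57, 3.52 and 3.65 TPM at 48 h and 4.12, 3.59 and 4.85 TPM at 72 h. Its 6 h change was 0.72 ± 0.10 (SE, adjusted p = 6.5e-06), under 2-fold. DDX60, a helicase linked to RIG-I signalling, rose only at 6 h among the 4 times (1.05 ± 0.08, SE; 10.8 ± 0.803 against 4.23 ± 0.21 TPM; lowest in sgEPCR DMSO at 2.39 TPM).

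IFI16, a sensor of DNA, gave a rise that kept growing: 33, 35.2 and 35.1 TPM in DMSO, 63.6, 66.2 and 67.8 TPM at 6 h, 144, 142 and 143 TPM at 24 h, 159, 164 and 141 TPM at 48 h and 176, 181 and 179 TPM at 72 h. The groups did not overlap with DMSO at any time. Its log2 changes were 0.80 ± 0.05, 2.32 ± 0.05, 2.49 ± 0.05 and 2.61 ± 0.05 (SE), or 5.61-fold at 48 h and 6.09-fold at 72 h. EIF2AK2, the kinase PKR, was highest at 24 h (27.9 ± 2.43 TPM against 13.2 ± 1.47, its lowest mean) without reaching 2-fold in the fitted counts (0.91 ± 0.07, SE). ADAR, which edits double-stranded RNA, was among the most abundant members and was highest in DMSO at 179 ± 6.31 TPM, with its lowest control-cell mean, 139 ± 0.823 TPM, at 72 h (-0.39 ± 0.03, SE, adjusted p = 4.5e-09) and a mean of 104 ± 46 TPM in sgEPCR UM171.

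Among membrane proteins BST2 and IFI6 rose from 24 h on. BST2, or tetherin, which tethers budding virus to the cell, had 46, 48.3 and 48.6 TPM in DMSO, 65.9, 64.7 and 61.9 TPM at 6 h, 142, 148 and 147 TPM at 24 h, 176, 181 and 131 TPM at 48 h and 147, 176 and 173 TPM at 72 h. Its log2 changes at 24, 48 and 72 h were 1.58 ± 0.06, 1.8 ± 0.06 and 1.73 ± 0.06 (SE). IFI6, a mitochondrial and endoplasmic reticulum protein, had 4.7, 5.32 and 4.78 TPM in DMSO, 8.62, 10.8 and 10.2 TPM at 6 h, 17.5, 19.7 and 19.1 TPM at 24 h, 21.1, 23.6 and 17.7 TPM at 48 h and 24.7, 27 and 28.3 TPM at 72 h. No treated library overlapped DMSO for IFI6, and its change was 2.36 ± 0.09 at 72 h. IFITM2, which blocks viral fusion, was the most abundant of all members: 200 ± 9.2 TPM in DMSO and 443 ± 30.6 TPM at 72 h (1.07 ± 0.11), with a rise at 48 h too, and DMSO was its lowest group.

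Its relatives IFITM1 and IFITM3 were nearly silent. IFITM1 was at 0.17, 0.72 and 0.28 TPM in DMSO, 0.3, 0.13 and 0.45 TPM at 6 h, 0.22, 0.25 and 0.26 TPM at 24 h, 0.22, 0 and 0.2 TPM at 48 h and 1.04, 0.22 and 0.45 TPM at 72 h. IFITM3 was at 0, 0 and 0.06 TPM in DMSO and 0.08, 0.32 and 0.36 TPM at 72 h, with a highest library of 0.36 TPM. The 3 genes are close copies, and the split of shared reads among them is uncertain. PLSCR1, a scramblase, rose at 72 h (1.29 ± 0.04, SE, adjusted p = 3.1e-14, 137 ± 5.16 against 63 ± 3.43 TPM; lowest in sgEPCR DMSO at 36.3 TPM). IFI27, a mitochondrial protein, had no group mean over 0.973 TPM (lowest in sgEPCR DMSO at 0.137 TPM), and LGALS3BP, a secreted glycoprotein, none over 0.83 TPM (lowest in sgEPCR DMSO at 0.08 TPM); neither passed both limits at any time.

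Among the GTPases, MX1, which traps viral ribonucleoproteins, had 0.44, 0.13 and 0.37 TPM in DMSO, 0.35, 1.31 and 0.77 TPM at 6 h, 0.44, 0.54 and 0.73 TPM at 24 h, 0.33, 0.65 and 0.39 TPM at 48 h and 0.55, 0.43 and 0.3 TPM at 72 h. The libraries overlapped, and its log2 changes of 1.22 ± 0.33 (SE, adjusted p = 0.0038) at 6 h and 1.32 ± 0.32 (SE, adjusted p = 0.0015) at 24 h missed the adjusted p limit. MX2, active against retroviruses, rose at 24 h (1.06 ± 0.06), from 12.4 ± 0.982, its lowest mean, to 28.7 ± 1.93 TPM. GBP1, a guanylate-binding protein, had 0, 0 and 0 TPM in DMSO, 0.16, 0.02 and 0.06 TPM at 6 h, 0, 0.12 and 0.02 TPM at 24 h, 0, 0.03 and 0.12 TPM at 48 h and 0, 0 and 0.01 TPM at 72 h. GBP4 had no group mean over 0.633 TPM (lowest in sgEPCR DMSO at 0.0733 TPM) and fell from 0.54, 0.66 and 0.7 TPM at 6 h to 0.45, 0.09 and 0.29 TPM at 24 h (log2 change -1.97 ± 0.30, SE, adjusted p = 2.2e-05). GBP5 rose from 0.23, 0.1 and 0.1 TPM in DMSO and 0.54, 0.51 and 0.72 TPM at 6 h to 0.78, 0.91 and 1.12 TPM at 24 h, 0.81, 1.21 and 0.7 TPM at 48 h and 1.36, 1.24 and 1.14 TPM at 72 h, by 2.82 ± 0.26 (SE) at the last; it was lowest in sgEPCR DMSO at 0.14 TPM.

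GBP2, the abundant member of that family, was at 81.5, 93.2 and 89.2 TPM in DMSO, 108, 101 and 101 TPM at 6 h, 65.8, 53.6 and 66.4 TPM at 24 h, 132, 143 and 148 TPM at 48 h and 169, 165 and 173 TPM at 72 h. It dipped below every DMSO library at 24 h (-0.49 ± 0.06, SE, adjusted p = 2.1e-06) and rose from 24 to 48 h by 1.07 ± 0.06 (SE, adjusted p = 8.5e-10). In the ubiquitin and ADP-ribose group, PARP14, a mono-ADP-ribosyltransferase, had 16.2, 16.8 and 16.1 TPM in DMSO, 32.7, 33.1 and 32.5 TPM at 6 h, 31.1, 29.2 and 29.1 TPM at 24 h, 27, 27.8 and 26.4 TPM at 48 h and 22.9, 23 and 26.7 TPM at 72 h. The spread between its libraries was small and its changes, 0.87 ± 0.03 (SE, adjusted p = 4.9e-12) at 6 h down to 0.44 ± 0.03 at 72 h, stayed under 2-fold with no overlap of groups.

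PARP9, a partner of DTX3L in DNA repair and antiviral defence, rose at all 4 times, just past the fold limit at 3 of them, with log2 changes of 1.26 ± 0.07, 1.00 ± 0.07, 1.00 ± 0.07 and 1.03 ± 0.07 (SE). Its mean went from 2.93 ± 0.175 TPM in DMSO to 8.03 ± 0.219 TPM at 6 h (lowest in sgEPCR DMSO at 2.31 TPM). The ubiquitin ligase DTX3L, whose gene overlaps it head to head, was highest at 6 h (21.1 ± 0.342 against 10.9 ± 1.97 TPM, 0.66 ± 0.05; lowest in sgEPCR DMSO at 7.73 TPM). TRIM21, a cytosolic antibody receptor and ubiquitin ligase, had 51.6, 54.1 and 52.3 TPM in DMSO, 61.5, 57 and 61.1 TPM at 6 h, 23.8, 25.4 and 25 TPM at 24 h, 27.6, 23.8 and 26.1 TPM at 48 h and 21.2, 19.1 and 20.9 TPM at 72 h. From 24 h on its libraries lay at 19.1 to 27.6 TPM, and it fell, with log2 changes of -1.16 ± 0.07 (SE, adjusted p = 7.1e-11), -1.06 ± 0.07 (SE, adjusted p = 1.8e-10) and -1.44 ± 0.07 (SE, adjusted p = 2.7e-12). TRIM22, a nuclear restriction factor, was at 116, 148 and 127 TPM in DMSO, 139, 159 and 168 TPM at 6 h, 84, 81.2 and 69.1 TPM at 24 h, 54.5, 61.8 and 47.8 TPM at 48 h and 100, 105 and 108 TPM at 72 h. It was lowest of all groups at 48 h, where it fell (-1.06 ± 0.05, SE, adjusted p = 5.3e-12).

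The nuclear body protein SP100 had 118, 120 and 124 TPM in DMSO, 129, 124 and 127 TPM at 6 h, 100, 91.2 and 91.2 TPM at 24 h, 80.2, 89.6 and 77.6 TPM at 48 h and 84.8, 81 and 88 TPM at 72 h. Its libraries from 24 h on lay below DMSO, with a log2 change of -0.68 ± 0.05 (SE, adjusted p = 5.3e-10) at 72 h, under 2-fold. At 6 h its small difference, -0.12, turns to 0.07 under total-count scaling or TPM. SP110, its relative, was highest at 6 h (26 ± 1.83 against 13.6 ± 1.32 TPM; lowest in sgEPCR DMSO at 8.41 TPM).

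Less studied members included some of the largest changes. EPSTI1 rose from 0.56, 0.6 and 0.37 TPM in DMSO to 4.2, 4.54 and 5.14 TPM at 6 h and stayed at 2.65, 2.67 and 2.79, 2.43, 2.61 and 2.71 and 3.22, 4.39 and 4.67 TPM at the later times. Its changes, 2.99 ± 0.21 at 6 h and 2.98 ± 0.20 at 72 h (SE), were the largest of any member at those times. IFI44 passed from 0.37, 0.19 and 0.35 TPM in DMSO to 0.99, 0.82 and 0.96 TPM at 6 h and 2.99, 2.75 and 2.56 TPM at 24 h, then to 1.05, 1.07 and 1.08 TPM at 48 h and 0.57, 0.58 and 0.25 TPM at 72 h. It rose by 3.96 ± 0.23 at 24 h and fell in each later step (-1.73 ± 0.18, SE, adjusted p = 9.2e-07 and -1.71 ± 0.25, SE, adjusted p = 1.5e-05). Its neighbour IFI44L had 0.01, 0.02 and 0.03 TPM in DMSO and 0.56, 0.68 and 0.77 TPM at 24 h, with 0.15, 0.28 and 0.14 TPM at 6 h, 0.22, 0.11 and 0.24 TPM at 48 h and 0.16, 0.36 and 0.24 TPM at 72 h. At 24 h it stood 12.6-fold in counts and 33.5-fold in TPM above DMSO.

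SAMD9 and SAMD9L, growth-restraining factors against poxviruses and in myeloid cells, were highest at 6 h, at 18.7 ± 0.452 and 14.4 ± 0.422 TPM against 8.46 ± 0.118 and 5.83 ± 0.34 in DMSO, with 6.92 and 2.61 TPM in sgEPCR DMSO. For SAMD9 that lower TPM had no counterpart in fitted counts, which differed from DMSO by 0.24 ± 0.25 with all libraries and -0.08 ± 0.07 without the 2 of high mitochondrial share (SE). SAMD9L rose at 6 and 24 h and SAMD9 at 24 h (1.02 ± 0.05, SE). XAF1, a pro-apoptotic partner of XIAP, fell from 6 to 24 h (-1.21 ± 0.08, SE, adjusted p = 1.1e-09), from 19.7, 16.9 and 18.6 to 7.32, 6.6 and 8.02 TPM, and was lowest in sgEPCR UM171 at 5.66 TPM. IFI35 had its highest mean, 14.1 TPM, at 72 h, was lowest in sgEPCR UM171 at 5.1 TPM and was under 2-fold at every time.

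Steps between times were then compared directly. From 6 to 24 h 8 members rose and 3 fell (background 3.61% and 6.43%; 7 and 5 under total-count or upper-quartile scaling): IFI6, IFI16, IFI44, IFI44L, IFIT1, OAS1, OAS3 and BST2 against TRIM21, XAF1 and GBP4. The largest of these rises were 2.17 ± 0.19 for IFI44, 2.17 ± 0.28 for IFI44L, 1.75 ± 0.24 for OAS1 and 1.74 ± 0.22 for OAS3 (SE). From 24 to 48 h 1 rose and 5 fell (2.51% and 0.338%), GBP2 against IFI44, IFI44L, OAS2, RSAD2 and CMPK2. From 48 to 72 h 0 rose by edgeR (17 were higher at an unadjusted p under 0.05) and only IFI44 fell (2.59% and 0.760%). That IFI44 call was lost without UM171 48 h replicate 2, UM171 72 h replicate 2 or UM171 72 h replicate 3, leaving 0, and with limma (17 higher and 11 lower at an unadjusted p under 0.05). Leaving out 1 library at a time ended 19 of the 84 time-course calls in 1 or more of 15 fits, each keeping an edgeR adjusted p of at most 0.00065. A single library decided 7 of them: DMSO replicate 2 for HERC5 at 6 h (0.99 without it) and TRIM21 at 48 h (-1.0), UM171 24 h replicate 1 for SAMD9 at 24 h (0.97), UM171 48 h replicate 3 for IFITM2 at 48 h (0.96) and UM171 72 h replicate 3 for ISG20 at 72 h (1.36). UM171 24 h replicate 2 decided the step of OAS1 from 6 to 24 h (1.58) and that of GBP2 from 24 to 48 h (0.99). Each of 3 or more libraries ended the others, with log2 changes without them of 1.70 to 1.84 for IFI44, 2.02 to 2.59 for OAS1 and 2.06 to 2.16 for OAS3 at 6 h, and 0.95 to 0.99 for PARP9 at 24 and at 48 h. At 48 h these were 1.08 to 1.46 for ISG20 and 0.99 to 1.09 for IFIT1, and at 72 h 2.11 to 2.58 for IFI44L and 1.90 to 2.12 for OAS3. In the steps they were -2.15 to -1.73 for GBP4, -2.06 to -1.82 for IFI44L and -1.73 to -1.53 for IFI44.

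The 2 scales differed by more than 1 on log2 for IFI44L and OAS3 alone among members in the comparisons of treated with DMSO control cells.

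Position on the chromosome was a further shared feature: 26 members lay in 10 runs with gaps of at most 100000 bases (GENCODE, GRCh38). Pearson's r over the 7 group means of log2(TPM + 1) describes likeness here, without a test, and its points share libraries; its median over 1225 member pairs was 0.48. OAS1 and OAS3 (chr12:112905856-112976460) had r = 0.97, OAS3 and OAS2 0.94, SAMD9 and SAMD9L (chr7:93099513-93148385) 0.93, CMPK2 and RSAD2 (chr2:6840570-6898239) 0.83, and IFIT3 and IFIT1 (chr10:89327307-89406487) 0.81. Other neighbours were unlike each other, with r = 0.15 for HERC6 and HERC5 (chr4:88378739-88506163) and -0.01 for GBP2 and GBP4. Both sgEPCR means in r include the library of high mitochondrial share, and r was not computed without those libraries.

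The second set of comparisons asked whether cells with the PROCR guide respond alike. In sgEPCR cells 6 of the 50 members rose after 24 h of UM171 and 0 fell by edgeR (28 higher and 5 lower at an unadjusted p under 0.05), against 6.99% and 3.33% of 15901 genes. Where 2 changes are given for a gene in the sgEPCR comparisons, the second is without both libraries of high mitochondrial share. Without those libraries, 12 rose and 0 fell (9.98% and 5.72% of 16360 genes). DESeq2 with all libraries called 11 higher and 0 lower, and limma on log2(TPM + 1) 1 and 0. A fit of the 2 groups alone called 0 (20 higher and 5 lower at an unadjusted p under 0.05), as did a fit with the replicate number as a block (23 and 5). The median log2 change of the members was 0.55, beside -0.01 over all genes, and 0.57 beside 0.00 without the 2 libraries.

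RSAD2 led, from 0.09, 0.44 and 0.38 TPM to 2.83, 1.58 and 2.64 TPM, by 3.22 ± 0.22 (SE, adjusted p = 8.4e-07) and by 2.94 ± 0.18 without the 2 libraries. IFIT2 rose from 0.38, 0.65 and 0.73 TPM to 3.48, 2.25 and 4.29 TPM (2.25 ± 0.16 and 2.30 ± 0.16 without them). GBP2 rose from 40.4, 42.2 and 44.1 TPM to 173, 152 and 168 TPM (1.88 ± 0.13 and 1.94 ± 0.08), where control cells had dipped. SAMD9L (1.59 ± 0.18 and 1.51 ± 0.07), RIGI (1.10 ± 0.10 and 1.14 ± 0.07) and IRF9 (1.05 ± 0.11 and 1.14 ± 0.09) completed the list. SAMD9L went from 2.24, 2.61 and 2.98 to 7.69, 6.38 and 8.79 TPM, RIGI from 1.26, 2.27 and 2.34 to 5.72, 3.4 and 5.9 TPM and IRF9 from 6.74, 13.4 and 14.2 to 31.6, 17.7 and 32.3 TPM, and for IRF9 each treated library exceeded each DMSO library. Leaving out single libraries ended the call of IRF9 in 4 of 12 fits (0.99 to 1.08) and that of SAMD9L in 2 (1.49 to 1.52).

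Without the 2 libraries IRF7, IFI6, IFI16, OAS3, EPSTI1 and BST2 also passed. IRF7 was at 0.58, 4.26 and 3.79 TPM and then 12.5, 1.84 and 11.9 TPM, and its change was 1.26 ± 0.49 (SE, adjusted p = 0.053) with all libraries and 1.29 ± 0.12 (SE, adjusted p = 3.4e-07) without the 2. BST2 was at 12.2, 57.5 and 55.1 TPM and then 131, 24.4 and 135 TPM (0.96 ± 0.36 and 1.04 ± 0.04). IFI6 was at 3.12, 5.25 and 3.32 TPM and then 14.8, 10.2 and 14.5 TPM (1.49 ± 0.22 and 1.59 ± 0.16), and IFI16 at 6.64, 10.1 and 11.6 TPM and then 36, 26.8 and 33.5 TPM (1.52 ± 0.27 and 1.49 ± 0.07). OAS3 (2.36 ± 0.35 and 2.60 ± 0.39) and EPSTI1 (2.11 ± 0.34 and 2.12 ± 0.27) made up the rest. For IRF7, BST2, IFI6 and IFI16 the remaining 2 treated libraries lay above the remaining 2 DMSO libraries.

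Other leading members did not pass in sgEPCR cells. STAT2 was at 3.89, 13.7 and 13.6 TPM and then 23.4, 8.55 and 25.7 TPM, IRF1 at 11.6, 31.3 and 36.4 and then 35.8, 11.4 and 36 TPM, and ISG15 at 2.77, 14.3 and 12.3 and then 10.9, 0.89 and 11.6 TPM. All these groups overlapped when every library was kept. Without the 2 libraries of high mitochondrial share the changes were 0.60 ± 0.06 for STAT2, 0.04 ± 0.06 for IRF1 and -0.44 ± 0.14 for ISG15 (SE). USP18 (0.31, 1.53 and 1.2 TPM; 2.04, 0.88 and 1.71 TPM under UM171), IFIT1 (0.18, 0.31 and 0.22; 0.48, 0.2 and 0.59) and IFIH1 (1.34, 2.49 and 2.19; 4.39, 2.43 and 4.77) had changes of 0.43 ± 0.25, 0.57 ± 0.27 and 0.59 ± 0.12 (SE), and of 0.25 ± 0.19, 0.88 ± 0.32 and 0.68 ± 0.11 without the 2 libraries. OAS1 had 0.04, 0 and 0.1 TPM and then 0.39, 0.14 and 0.76 TPM, a change of 3.20 ± 0.62 (SE, adjusted p = 0.0013) with all libraries and 4.03 ± 0.70 (SE, adjusted p = 0.00013) without the 2, on a base of almost no reads. MX1 (0.3, 0.39 and 0.38 TPM; 0.35, 0.36 and 0.27), PARP14 (12.2, 17.6 and 16.7; 18.4, 19.8 and 17.8) and SP100 (32, 55.4 and 54.5; 116, 80.9 and 112) also missed the limits. Without the 2 libraries MX1, PARP14 and SP100 changed by -0.86 ± 0.49, -0.01 ± 0.04 and 0.86 ± 0.05 (SE). IFITM1 had 0, 0.23 and 0 TPM and then 0, 0 and 0 TPM, IFITM3 0, 0 and 0 TPM and then 0, 0 and 0.21 TPM, and GBP1 0.05, 0 and 0 TPM and then 0, 0 and 0.05 TPM.

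Baselines of the genotypes were compared in DMSO, where the sgEPCR libraries are labelled 24 h and the controls 72 h, so genotype and time cannot be told apart. Of the 50 members 2 were higher and 4 lower in sgEPCR cells (background 1.43% and 1.41%), and without the library of high mitochondrial share in each sgEPCR group 2 were higher and 9 lower (3.11% and 3.40%). HERC5 (5.99, 12 and 13.3 TPM, 1.30 ± 0.10 and 1.30 ± 0.07 without the 2) and MX2 (19.2, 21.5 and 24.2 TPM against 11.4, 12.5 and 13.3, 1.07 ± 0.12 and 0.91 ± 0.06) were the higher ones, MX2 losing its call without the libraries. RSAD2 (-2.54 ± 0.22 and -2.36 ± 0.18), IFIT2 (-2.07 ± 0.16 and -2.18 ± 0.15), CMPK2 (-1.11 ± 0.10 and -1.02 ± 0.06) and TRIM21 (-1.02 ± 0.10 and -1.11 ± 0.07) were lower. CMPK2 had 2.39, 5.89 and 6.46 TPM and TRIM21 19.3, 24.1 and 22 TPM in these libraries, all below their DMSO controls. TMM scaling holds the median of all genes at 0.00 here, and total-count scaling moves it to -0.25, where 0 members are higher and 3 lower (6 and 26 at an unadjusted p under 0.05); RLE or upper-quartile scaling gave 1 and 4. The 2 groups alone gave 0 (9 and 19 at an unadjusted p under 0.05). Single libraries mattered here: 3 calls were left without DMSO replicate 1 or sgEPCR DMSO replicate 3, and 2 without DMSO replicate 2 or 3. The calls ended were those of MX2 in 10 of 12 fits (0.92 to 1.11), TRIM21 in 7 (-1.06 to -0.97), CMPK2 in 4 (-1.13 to -1.09) and RSAD2 in 3 (-2.58 to -2.45).

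Under UM171 at 24 h, 3 members were higher and 2 lower in sgEPCR than in control cells (background 2.67% and 1.79%), and 4 and 6 without the 2 libraries (6.09% and 3.78%). IRF1 (1.21 ± 0.13 and 1.34 ± 0.06 without the 2), IRF9 (1.21 ± 0.11 and 1.28 ± 0.08) and GBP2 (1.51 ± 0.13 and 1.44 ± 0.07) were higher. IFIT1 (-2.43 ± 0.23 and -2.31 ± 0.22) and OAS2 (-2.51 ± 0.29 and -2.50 ± 0.26) were lower, OAS2 with 0.28, 0.11 and 0.58 TPM in sgEPCR cells. Only without the 2 libraries was IRF7 (1.28 ± 0.11) also called higher. IFI16 (-2.22 ± 0.05), IFI44 (-1.45 ± 0.19), IFI44L (-2.19 ± 0.32) and GBP5 (-2.28 ± 0.35) were then also called lower (SE). Of the 11 effectors against viral RNA, 7 were lower and 1 higher at an adjusted p under 0.05 (22.2% and 20.8% of all genes), and 8 and 1 without the 2 libraries (35.9% and 32.4%). The median of all members was -0.39, beside -0.02 over all genes, and -0.46 beside -0.03 without the 2. The 2 groups alone gave 0 calls (8 higher and 23 lower at an unadjusted p under 0.05). The 5 calls made with all libraries depended on single libraries. Without UM171 24 h replicate 1, 0 were left. There was 1 without UM171 24 h replicate 2 or sgEPCR UM171 replicate 1, and 2 without UM171 24 h replicate 3. There were 3 without any 1 of the DMSO libraries, sgEPCR DMSO replicate 2 or 3 or sgEPCR UM171 replicate 3, and 8 without sgEPCR DMSO replicate 1. Where calls ended, the values were -2.81 to -2.29 for OAS2, 1.12 to 1.24 for IRF1, 1.16 to 1.25 for IRF9, -2.40 to -2.33 for IFIT1 and 1.51 for GBP2.

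Finally, the 24 h response of sgEPCR cells minus that of control cells was tested as 1 difference. It rested on 4 groups whose DMSO libraries carry different times and was above 0 for 5 members and below 0 for 3 (background 3.60% and 4.17%). Without the 2 libraries the counts were 8 and 5 (9.28% and 9.79%), and total-count scaling gave 3 and 0 (13 and 16 at an unadjusted p under 0.05). With the replicate number as a block 0 were called (13 and 15). IFIT2 (2.79 ± 0.21, SE, adjusted p = 3.5e-06), RSAD2 (2.40 ± 0.29), GBP2 (2.37 ± 0.18), TRIM21 (1.51 ± 0.14) and IRF9 (1.29 ± 0.15) had a difference above 0. IFI44 (-2.91 ± 0.35, SE, adjusted p = 7.3e-05), HERC5 (-2.06 ± 0.14) and MX2 (-1.62 ± 0.16, SE) had one below 0. Without the 2 libraries the differences were 2.83 ± 0.19, 2.13 ± 0.22, 2.44 ± 0.10, 1.57 ± 0.10 and 1.39 ± 0.13 for the first 5 and -2.67 ± 0.39, -2.14 ± 0.09 and -1.45 ± 0.08 for the others. All 8 were also called there. So were IRF7 (2.48 ± 0.16), LGALS3BP (3.39 ± 0.55) and SP100 (1.30 ± 0.06) above 0, and IFITM2 (-1.24 ± 0.08) and USP18 (-1.61 ± 0.26) below 0 (SE). Fewer of the 8 remained without single libraries: 4 without any 1 of the DMSO or UM171 24 h libraries or sgEPCR UM171 replicate 1 or 3, and 5 without sgEPCR DMSO replicate 3. IRF9 (1.2 to 1.33), IFI44 (-3.01 to -2.83), RSAD2 (2.31 to 2.45) and MX2 (-1.68 to -1.60) were the ones lost.

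For IFIT2, RSAD2 and TRIM21 the sgEPCR baseline was called below that of control cells, and treated means were 3.34, 2.35 and 33.3 TPM against 2.33, 2.87 and 24.7 TPM in treated control cells. HERC5 and MX2 had a higher sgEPCR baseline and treated levels below those of control cells (12.2, 8.52 and 11.6 TPM against 22.3, 20.8 and 19.4; 17.9, 14.4 and 17.8 TPM against 30.6, 26.7 and 28.8). Direction differed between genotypes for 5 of the 8, each at an adjusted p under 0.05 in its own fit: GBP2 (-0.49 ± 0.06 in control cells), IFIT2 (-0.53 ± 0.11), TRIM21 (-1.16 ± 0.07) and IRF9 (-0.25 ± 0.08) were lower with UM171 in control cells and higher in sgEPCR cells, and MX2 (1.06 ± 0.06; -0.55 ± 0.12 in sgEPCR cells) the other way. IFI44 in sgEPCR cells went from 0.61, 0.6 and 0.4 to 1.62, 0.71 and 2.5 TPM.

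**Figure D4:**
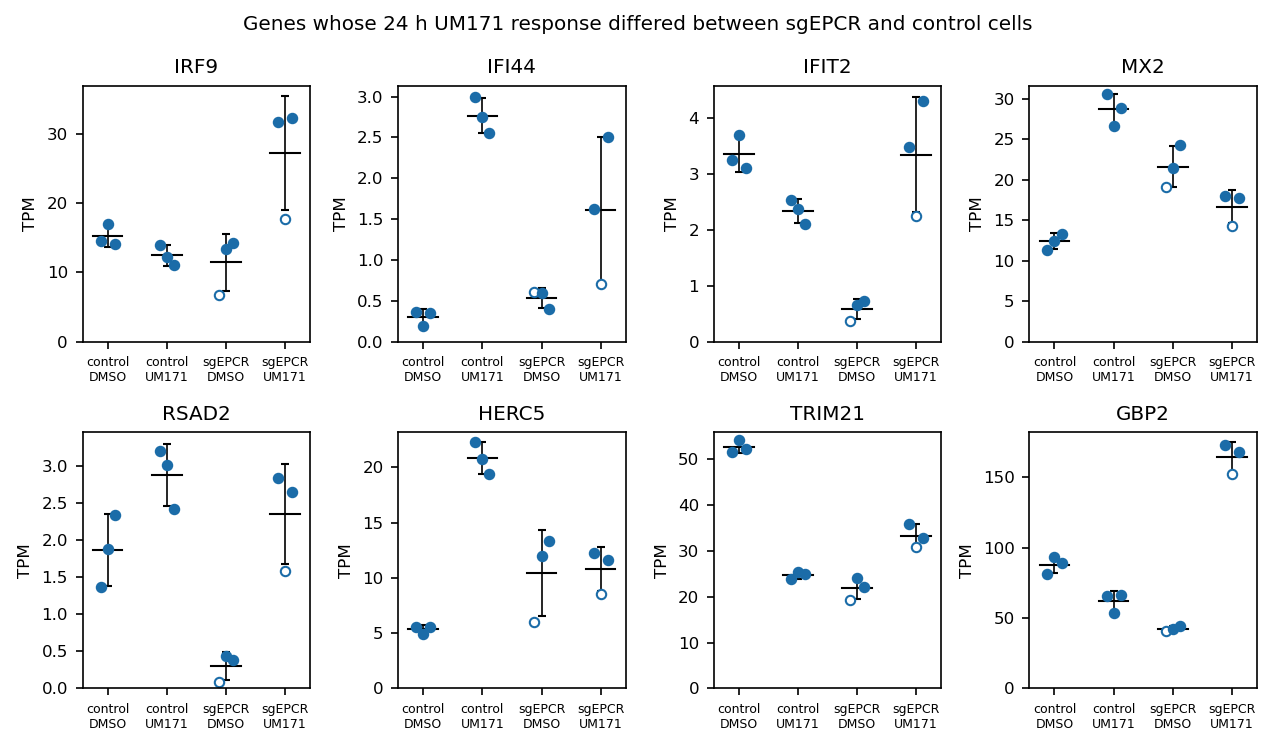
TPM of the 8 interferon-stimulated genes whose 24 h UM171 response differed between genotypes, in DMSO and UM171 (24 h) libraries of control and sgEPCR cells; points are libraries, open points the 2 of high mitochondrial share, bars the mean ± SD (n = 3). GBP2 stands at 152 to 173 TPM in sgEPCR UM171 libraries and at 53.6 to 66.4 TPM in control UM171 libraries.

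Of the 43 further pathway genes, 32 were tested in this fit, and 2 rose and 1 fell in sgEPCR cells under UM171 (6.99% and 3.33% of all genes). Without the 2 libraries 6 of 33 rose and 1 fell (9.98% and 5.72% of all genes in that fit). TLR3 (3.55 ± 0.41, SE) and TRIM25, a ligase that activates RIG-I (1.05 ± 0.11), rose and IRF8 (-1.48 ± 0.07) fell, with changes of 3.73, 1.11 and -1.44 without the 2 libraries. With all libraries TRIM25 was also the gene of that list whose response differed between genotypes (1.53 ± 0.16, background 3.60% above 0 and 4.17% below). It was at 141, 108 and 143 TPM in treated sgEPCR libraries against 65.8, 69.9 and 66.1 TPM in treated control libraries. Without the 2 libraries the difference was above 0 for 4 of 33 and below 0 for 1 (9.28% and 9.79% of all genes). JAK2 (1.44 ± 0.07), SOCS1 (1.87 ± 0.15), SOCS3 (1.59 ± 0.19) and TRIM25 (1.60 ± 0.05) were above and IKBKE (-1.33 ± 0.09) below (SE).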

How the data were processed

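RNA was measured in 21 libraries of OCI-AML5 cells. The submitters' processing notes name CASAVA 1.8.2, Trimmomatic 0.35, STAR 2.5.1b and RSEM 1.2.28 on GRCh38; the methods name kallisto and sleuth, whose output was not used here. Expected counts per gene, with shared reads split by RSEM, were deposited by the authors and rounded here to whole counts. The authors also deposited TPM, used here for levels, and the bounds of its credibility interval as a score per library. The kit marks strand, and the strand setting of the counting is not given in the sources used here.

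Libraries held 24286668 to 51540166 counts (median 33888914), and a count of 0 allows up to 3. Of 58219 entries per library, 45 duplicate Y entries were merged, leaving 58174 identifiers.

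Counts were fitted with edgeR 4.0.16 (R 4.3.3; filterByExpr, TMM, quasi-likelihood), in 1 fit of the 15 control-cell libraries (16575 genes) and 1 of 12 libraries (15901 genes: DMSO, UM171 24 h and both sgEPCR groups). P-values were adjusted by Benjamini-Hochberg over all genes tested. Calls required an adjusted p below 0.0001 with more than 2-fold difference, and the standard error is the log2 change divided by the root of the F statistic. The code was tested on simulated data. Alternatives used DESeq2 1.42.0, limma 3.58.1 on log2(TPM + 1), other scalings, filters and libraries. Figures used matplotlib 3.10.9.

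The members, roles, pathway list and markers were chosen with earlier results of these data known. Every member was named with its levels or as not tested. Values per library were given for 18 lead genes of the roles and for the 4 largest rises and 4 largest falls among calls of each comparison. Deviations from the group mean were correlated between same-numbered libraries, with r from -0.08 to 0.07 over 30 control-cell pairs and -0.56, -0.56 and 0.41 for the sgEPCR pairs, the last being the pair without a library of high mitochondrial share. The labels do not say whether same-numbered sgEPCR libraries share a clone, so the replicate block was kept as an alternative. No batch is labelled.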

Additional observations from a re-analysis of the deposited data

Results flagged for a closer look

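For 8 members the difference between the 24 h UM171 responses of sgEPCR and control cells, tested directly in edgeR's quasi-likelihood fit, passed the adjusted p of 0.0001 and 2-fold. In log2 units, sgEPCR minus control, it was 2.79 ± 0.21 (SE, adjusted p = 3.5e-06) for IFIT2, 2.40 ± 0.29 (SE, adjusted p = 7.5e-05) for RSAD2, 2.37 ± 0.18 (SE, adjusted p = 3.3e-06) for GBP2, 1.51 ± 0.14 (SE, adjusted p = 1.1e-05) for TRIM21 and 1.29 ± 0.15 (SE, adjusted p = 7.2e-05) for IRF9. It was -2.91 ± 0.35 (SE, adjusted p = 7.3e-05) for IFI44, -2.06 ± 0.14 (SE, adjusted p = 1.4e-06) for HERC5 and -1.62 ± 0.16 (SE, adjusted p = 2.2e-05) for MX2. Without both libraries of high mitochondrial share the values were 2.83, 2.13, 2.44, 1.57 and 1.39 for the first 5 and -2.67, -2.14 and -1.45 for IFI44, HERC5 and MX2. The DMSO libraries of the genotypes carry different labelled times, so time and genotype cannot be told apart in any of these differences.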

How the results depend on the processing

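Counts of members called higher or lower together are compared here, and where a count moved the cause was not tested. With an adjusted p under 0.05 and no minimum fold the counts were 39, 43, 40 and 38 at 6, 24, 48 and 72 h, 38, 31 and 28 in the successive steps, 28 for UM171 in sgEPCR cells, 28 for sgEPCR against control DMSO, 27 under UM171 and 28 for the difference of responses. Of all genes, 32% were higher and 35% lower at that limit from 6 to 24 h, beside 36% and 40% of members. From 24 to 48 h the shares were 24% and 22%, beside 20% and 42%. From 48 to 72 h they were 28% and 29%, beside 30% and 26%. UM171 in sgEPCR cells gave 27% and 25%, beside 46% and 10%. The difference of responses gave 22% and 23%, beside 26% and 30%. Backgrounds for the other comparisons are given above, and a count alone is not read as particular to the members. With limma on log2(TPM + 1) the counts were 10 at 48 h, 5, 2 and 0 in the steps, and 1, 0, 1 and 0 in the 4 sgEPCR comparisons in the same order. At least 10 counts in every library gave 6 from 6 to 24 h, 0 from 48 to 72 h and 3 between genotypes under UM171. Fits of the compared groups alone gave 3 from 24 to 48 h, 0 from 48 to 72 h and 0 for each sgEPCR pair of groups. DESeq2 gave 11 and one fit of all libraries 12 for UM171 in sgEPCR cells, and both gave 11 between genotypes under UM171. Total-count scaling gave 10, 3, 2 and 3 in the sgEPCR comparisons, and leaving out both libraries of high mitochondrial share 12, 11, 10 and 13. Where a count was 0, members at an unadjusted p under 0.05 numbered, higher and lower, 17 and 11 (limma), 16 and 10 (10 counts) and 15 and 12 (groups alone) from 48 to 72 h. For groups alone they were 20 and 5 for UM171 in sgEPCR cells, 9 and 19 in DMSO and 8 and 23 under UM171, and for limma 2 and 24 in DMSO and 10 and 12 for the difference of responses. The narrower motif was in 21 promoters.

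With the replicate block, 0 members were called for UM171 in sgEPCR cells and 0 for the difference of responses (23 higher and 5 lower, and 13 and 15, at an unadjusted p under 0.05), and 4 of 84 time-course calls were lost; the 2 comparisons between genotypes have no such fit, since the block lies within genotype. Leaving out 1 library gave 9 to 13, 18 to 21, 15 to 18 and 12 to 15 calls at 6, 24, 48 and 72 h, 9 to 11, 4 to 7 and 0 to 1 in the steps, and 4 to 7, 2 to 7, 0 to 8 and 4 to 8 in the sgEPCR comparisons. It ended 15 of the 25 sgEPCR calls in 1 or more fits. Signs reversed for 5 uncalled changes: SP100 at 6 h (0.07 by limma and 0.07 by total-count scaling), ADAR from 6 to 24 h (-0.01 by total-count scaling), PLSCR1 from 6 to 24 h (-0.12 by limma, -0.02 by total-count scaling), TRIM22 under UM171 in sgEPCR cells (0.01 by limma) and IFIT5 in DMSO (-0.04 by limma). Of the 84 time-course calls DESeq2 kept all but 3 and limma all but 35. Depth limits the low members: IFITM1, IFITM3 and GBP1 had too few counts to test.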
